A study of Homo sapiens with 16 samples.

Results

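The genes described here make up the machinery that copies DNA in S phase and the enzymes that supply its building blocks. They are 53 named genes, all of which had at least 1 probe set assigned to that gene alone on the Affymetrix U133A array, out of 11963 genes measured there. All 53 were also among the 7178 genes bright enough to be tested. They were followed in OVCAR3, an established human ovarian carcinoma cell line grown in medium with 15% fetal bovine serum. 12 U133A arrays held 3 arrays each of cells given the ethanol vehicle and of cells given 1,25(OH)2D3, the active vitamin D hormone, for 8, 24 or 72 h. The hormone was added at staggered times and the cells were collected together, and all of them had the same exposure to ethanol, so the vehicle group stands as the 0 h point. The labels number the arrays of each group as biological replicates 1 to 3, and 3 independent experiments are stated. The dose is given as 0.1 pM, a unit that the arrays cannot check. A further 4 arrays of the older U95 type held 1 sample of each time, and 46 of the 53 genes could be read there.

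DNA replication starts at origins that are licensed in G1. The origin recognition complex, CDC6 and CDT1 load the MCM helicase ring onto DNA, and geminin (GMNN) blocks reloading once S phase has begun. Kinases and firing factors such as CDC7 with DBF4, TOPBP1, MCM10, CDC45 and the GINS complex then switch the helicase on, and primase, the replicative polymerases, the PCNA clamp, its RFC loader, RPA, FEN1 and LIG1 carry out synthesis. Ribonucleotide reductase (RRM1 with RRM2), thymidylate synthase (TYMS), thymidine kinase (TK1) and dUTPase (DUT) supply the deoxynucleotides, and many of these genes are textbook targets of E2F transcription factors. 1,25(OH)2D3 acts through the vitamin D receptor, and slowing of proliferation is a known response of many carcinoma lines to it.

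Because E2F sites are the regulatory sequence these genes are best known to share, their promoters were searched for 4 E2F-type motifs of 8 letters, TTTCCCGC, TTTGGCGC, TTTGCCGC and TTTCGCGC, on both strands, and for CCAAT on both strands. The window ran from 250 bases before to 50 bases after each RefSeq start (GRCh38.p14). On opposite strands, TTTGGCGC and TTTCGCGC can share letters, as in MCM6, where 2 pairs of matches overlap. Of the 53 genes, 47 had 1 or more windows in the RefSeq promoter table, and MCM4, MCM5, POLD3, RPA2, RPA3 and E2F8 had no entry. At least 1 E2F-type match was found in 24 of the 47 genes (51.1%), against 3.99% of the 27305 genes of the table and 6.95% of the 6003 tested genes with a window. Counted by windows, 38.1% of the 63 windows of these genes held a match, against 3.31% of all 35116 windows. CCAAT was found in 57.4% of the 47 genes, 39.7% of all genes of the table and 44.7% of the tested genes with a window. These are matches of letters and not measured binding sites. The sequences below were chosen because they belong to the genes whose values are given in full or whose arrays stood apart from vehicle, and they show matches on both strands. Capitals mark every E2F-type match that lies wholly in the stretch, overlapping ones in MCM6 as 1 run and 2 separate ones in E2F1. CCAAT matches on either strand are left in lower case, as in the proximal MCM6 stretch and that of PCNA (ATTGG). Each stretch is read 5′ to 3′ on the strand of its gene, upstream of the start.
MCM6, distal match: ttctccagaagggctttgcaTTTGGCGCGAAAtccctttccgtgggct
MCM6, proximal match: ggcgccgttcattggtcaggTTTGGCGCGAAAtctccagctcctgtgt
CDT1: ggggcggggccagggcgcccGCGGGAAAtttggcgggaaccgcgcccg
GINS2: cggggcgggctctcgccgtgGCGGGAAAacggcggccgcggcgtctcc
PCNA: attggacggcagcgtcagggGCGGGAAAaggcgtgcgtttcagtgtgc
RFC3: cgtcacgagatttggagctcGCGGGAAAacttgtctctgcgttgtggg
TYMS: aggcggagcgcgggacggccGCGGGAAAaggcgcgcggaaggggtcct
E2F1: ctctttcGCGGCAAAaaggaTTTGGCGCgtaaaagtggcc

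On GRCh38.p14 the distal and proximal MCM6 stretches lie at chr2:135876568-135876615 (minus strand) and chr2:135876506-135876553 (minus strand). The CDT1 stretch lies at chr16:88803734-88803781 (plus strand), that of GINS2 at chr16:85688958-85689005 (minus strand), that of PCNA at chr20:5126654-5126701 (minus strand) and that of RFC3 at chr13:33818074-33818121 (plus strand). The TYMS stretch lies at chr18:657594-657641 (plus strand) and that of E2F1 at chr20:33686386-33686425 (minus strand). By role, an E2F-type match was present in 4 of 4 MCM genes with a window, 1 of 6 origin recognition genes and 9 of 12 licensing and firing genes. It was present in 4 of 8 polymerase and primase genes, 3 of 9 clamp, loader, RPA, flap and ligase genes, 2 of 5 nucleotide supply genes and 1 of 3 genes of the last role, E2F factors and chromatin assembly.

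Each value is a signal, the linear MAS5 intensity of 1 probe set, and each difference is taken on log2(signal + 15.833) and tested with limma, a linear model across all genes. The arrays were alike in overall brightness. The median signal over all probe sets lay between 168 and 196 on the 12 arrays, and correlations of log2 values between arrays lay between 0.958 and 0.976. The treatment check held at every time. GADD45A, a stress and DNA repair gene that the study monitored, had a mean signal of 468 with vehicle and 1332, 1800 and 1943 at 8, 24 and 72 h, a rise of 2.81-fold, 3.76-fold and 4.06-fold. All 12 epithelial and ovarian carcinoma markers passed the brightness filter, led by KRT18, a keratin of simple epithelia, and PAX8, a Müllerian transcription factor. Of the markers of other cells, 3 of 10 for fibroblasts, 1 of 8 for leukocytes and 0 of 6 for endothelium did. The fibroblast gene LUM was near 0 (0.283 to 7.50 over the 12 arrays), while COL1A1 was not (416 to 725).

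Over the 53 genes the differences from vehicle were small, and more of them were below 0 than over all tested genes at each time. The median log2 difference was -0.038 at 8 h, -0.12 at 24 h and -0.082 at 72 h, beside -0.0040, -0.016 and -0.014 over all 7178 tested genes. Levels were lower than vehicle in 33, 39 and 36 of the 53 genes, where 51.2%, 53.3% and 52.3% of all tested genes were lower. Without 8 h replicate 2 the 8 h median turned to 0.0087, and with the probe sets of each gene averaged the medians were -0.038, -0.069 and -0.15, so the order of 24 h and 72 h depends on the probe sets. The interquartile range of the 53 differences at 24 h ran from -0.23 to 0.0020, and that of all tested genes from -0.15 to 0.11. The 3 comparisons share the vehicle arrays, so they are not independent of each other. In these bulk samples a lower level cannot be told apart from a smaller share of cells in the cycle phase that expresses the gene.

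**Figure D1:**
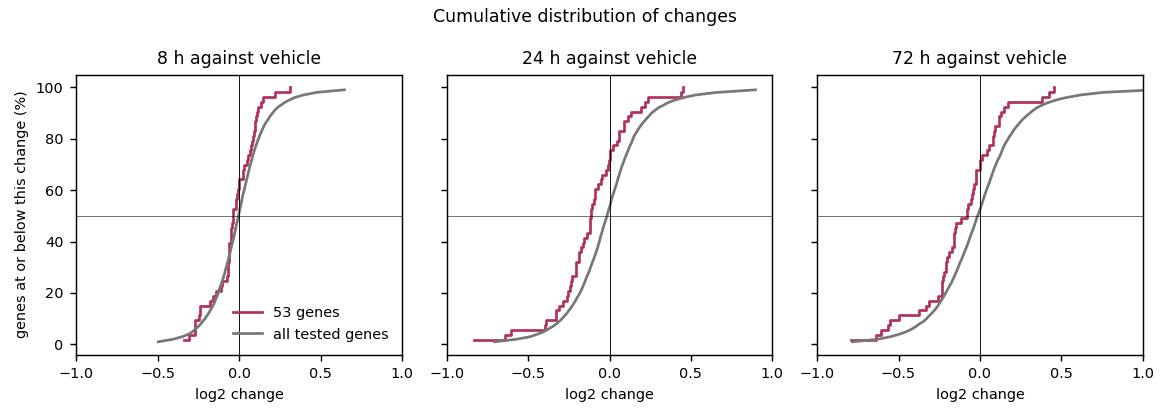
Cumulative share of genes (vertical axis) against the log2 difference from vehicle (horizontal axis) at 8, 24 and 72 h, for the 53 replication genes and for all 7178 tested genes. At 24 h the curve of the 53 genes lies to the left of that of all tested genes, with medians of -0.12 and -0.016.

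Array by array, the median deviation of the 53 genes from the vehicle mean (log2) was -0.032 to 0.016 on the vehicle arrays and -0.052, -0.050 and -0.010 on the 8 h arrays. It was -0.092, -0.18 and -0.058 on the 24 h arrays and -0.10, -0.14 and -0.058 on the 72 h arrays. The 24 h and 72 h arrays thus lay below all 3 vehicle arrays, while 1 of the 3 at 8 h lay among them. The corresponding median over all genes lay between -0.037 and 0.0084 on every one of the 12 arrays, lowest on replicate 1 at 72 h.

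At 8 h no gene of the 53 passed the threshold of limma's test, an adjusted p under 0.05, and 2 genes had an unadjusted p under 0.05, both lower. Over all tested genes 0.78% passed, 0.724% higher and 0.0557% lower, and 6.38% had an unadjusted p under 0.05, 2.66% lower. At 24 h 2 of the 53 fell, E2F8 and MCM10, and none rose, against 4.08% of all tested genes in either direction, 2.47% higher and 1.62% lower. At 72 h 4 fell, E2F8, CHAF1B, TIPIN and RFC3, and 1 rose, RRM2, against 6.84% of all tested genes in either direction, 3.86% higher and 2.98% lower. With each array centred on its median, the 72 h split was 0 higher and 2 lower, and over all tested genes the calls at 72 h were 56.4% higher as reported and 61.1% higher after that centring. At an unadjusted p under 0.05, 12 of the 53 differed at 24 h (10 lower) and 13 at 72 h (11 lower). Of all tested genes 14.4% did at 24 h (7.17% lower) and 20.1% at 72 h (10.3% lower).

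Complete separation of the arrays was counted as well. At 8 h all 3 treated arrays lay below all 3 vehicle arrays for 6 of the 53 genes and above them for 2, where 6.95% and 6.52% of all tested genes did so. At 24 h 15 lay below and 2 above, beside 11.2% and 9.35% of all tested genes. The 15 were MCM4, MCM6, ORC6, GMNN, MCM10, GINS2, TIPIN, POLD3, PCNA, RPA1, FEN1, RRM1, E2F1, E2F8 and CHAF1B, and the 2 above were CDC45 and POLD2. At 72 h 14 lay below and 1 (RRM2) above, beside 12.7% and 11.7%. Of the 53 genes, FEN1, E2F8 and CHAF1B lay below vehicle on all 9 treated arrays.

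**Figure D2:**
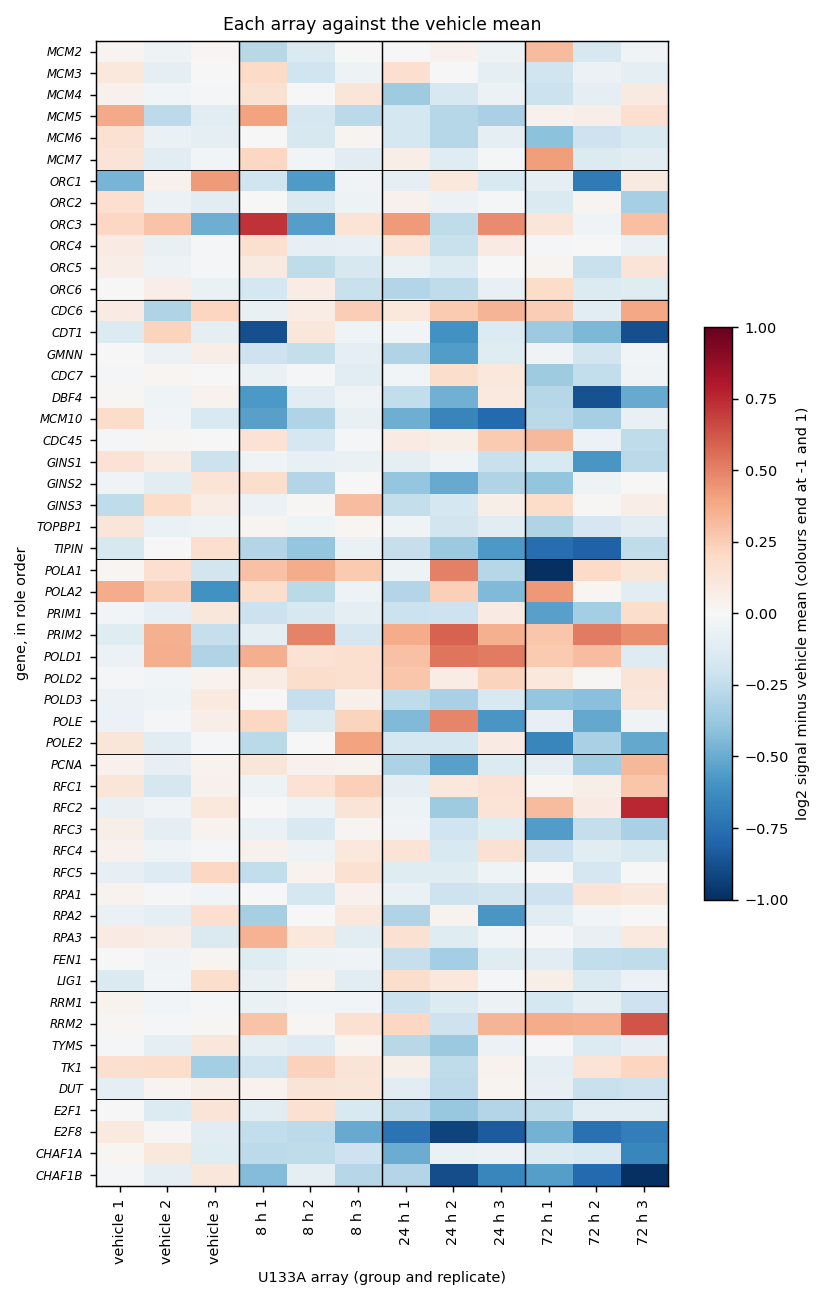
Log2 signal of each of the 53 genes on each of the 12 U133A arrays relative to the gene's vehicle mean, with genes in rows ordered by role and arrays in columns by group and replicate. E2F8 and CHAF1B are below the vehicle mean on all 9 treated arrays, while ORC1 and ORC3 vary within every group, vehicle included.

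E2F8 is an atypical E2F, a repressor that is itself expressed in S phase, and it had the most certain change of the group. Its gene lies at chr11:19224063-19241655 (GRCh38.p14). The signals were 581, 547 and 498 with vehicle, 453, 448 and 377 at 8 h, 319, 277 and 296 at 24 h, and 386, 317 and 328 at 72 h. Every treated array lay below every vehicle array. The 24 h arrays lay below all 8 h arrays, while the 72 h arrays overlapped those at 8 h (386 at 72 h, 377 at 8 h). Relative to vehicle the log2 difference in limma's test was -0.34 ± 0.13 (SE, n = 3) at 8 h, with an adjusted p of 0.50. At 24 h E2F8 was 1.78-fold lower (log2 -0.83, 95% interval -1.11 to -0.55, adjusted p = 0.0011) and at 72 h 1.55-fold lower (log2 -0.64, adjusted p = 0.0064, limma). Among the 53 genes it alone passed the F test of any time (adjusted p = 0.0033, limma), which 5.21% of all tested genes passed. Others joined it in that test under some settings: CHAF1B and RFC3 with probe sets averaged, CHAF1B with array weights, RRM2 with the replicate number as a block, and MCM10 and POLE2 without 8 h replicate 1. CHAF1B joined without 24 h replicate 1 or 72 h replicate 1, and RRM2 without 24 h replicate 2. Both calls of E2F8 were kept under all 23 alternative settings, with adjusted p values up to 0.0086 at 24 h and 0.039 at 72 h.

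CHAF1B, a subunit of the chromatin assembly factor that places histones behind the fork (chr21:36385392-36419015), was lower at each later time. Its signals were 315, 297 and 346 with vehicle, 232, 296 and 259 at 8 h, 258, 165 and 198 at 24 h, and 212, 179 and 146 at 72 h. All 9 treated arrays lay below the vehicle arrays, though replicate 2 at 8 h did so by less than 1 unit. The log2 difference was -0.61 ± 0.19 (SE, n = 3) at 24 h, which did not pass limma's test (adjusted p = 0.097). At 72 h CHAF1B was 1.73-fold lower (log2 -0.79, 95% interval -1.20 to -0.39, adjusted p = 0.017, limma). The call was lost without vehicle replicate 1 (adjusted p = 0.058, limma), vehicle replicate 3 (0.078) or 72 h replicate 3 (0.066).

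E2F1, the activator that drives S phase genes, and CHAF1A, the large subunit of the same assembly factor, passed no threshold. E2F1 signals were 440, 399 and 483 with vehicle, 405, 489 and 394 at 8 h, 364, 334 and 355 at 24 h, and 366, 405 and 406 at 72 h. The 24 h arrays lay below all vehicle arrays, the others overlapped them, and the log2 difference at 24 h was -0.31 ± 0.13 (SE, n = 3, adjusted p = 0.25, limma). A second E2F1 probe set, dimmer, gave -0.37 at 24 h. At 8 h and 72 h it gave 0.49 and 0.14, opposite in sign to the first (-0.038 and -0.16). CHAF1A differed by -0.24, -0.21 and -0.31 (log2) at the 3 times, with an adjusted p of at least 0.28 in limma's test. Its other probe sets, dimmer, gave -0.065 and 0.34 at 8 h, 0.028 and 0.054 at 24 h, and -0.061 and -0.20 at 72 h. No direction can thus be given for CHAF1A at 8 h and 24 h.

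**Figure D3:**
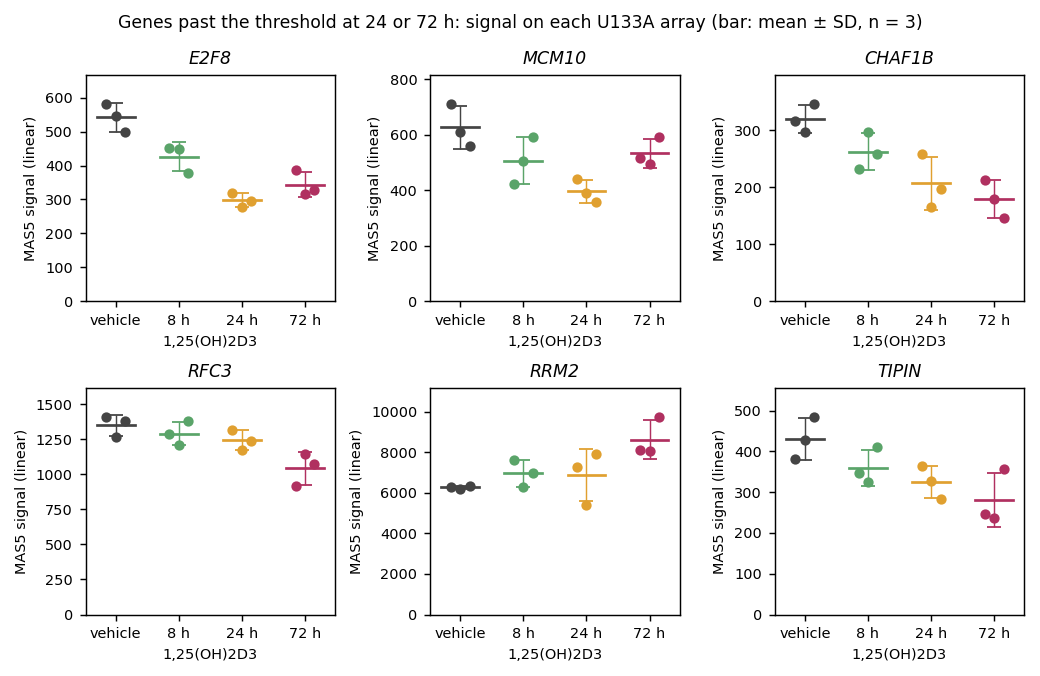
U133A signal (linear scale from 0) on each array for the 6 genes past the threshold at some time, by group; points are arrays, horizontal lines group means and error bars 1 SD (n = 3). E2F8 falls from 498 to 581 with vehicle to 277 to 319 at 24 h, and RRM2 is highest on the 3 arrays at 72 h.

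Among the 12 licensing, loading and firing genes, MCM10 fell at 24 h and TIPIN at 72 h. MCM10, which bridges the helicase and primase at firing (chr10:13161558-13211110), read 710.4, 610.4 and 559 with vehicle, 423, 504 and 591 at 8 h, 441, 389 and 356 at 24 h, and 516, 493 and 591 at 72 h. Its 3 arrays at 24 h lay below all vehicle arrays, and at 8 h and 72 h the ranges overlapped. The log2 difference was -0.31 at 8 h, -0.64 ± 0.14 (SE, n = 3) at 24 h, when it was 1.56-fold lower (adjusted p = 0.016, limma), and -0.22 at 72 h (adjusted p = 0.42). From 24 h to 72 h it differed by 0.42 (adjusted p = 0.29, limma), so a return was not established. Without vehicle replicate 1 the 24 h call was lost (adjusted p = 0.095, limma), as it was without 24 h replicate 3 (0.071).

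TIPIN, which with its partner TIMELESS holds the fork together under stress (chr15:66336191-66386717), read 382, 427 and 483 with vehicle, 347, 324 and 409.5 at 8 h, 363, 327 and 283 at 24 h, and 247, 238 and 356 at 72 h. The 24 h and 72 h arrays all lay below vehicle, the 8 h arrays did not. At 72 h TIPIN was 1.53-fold lower (log2 -0.61 ± 0.17, SE, n = 3, adjusted p = 0.041, limma), and at 24 h it differed by -0.39 (adjusted p = 0.29). Of 22 alternative settings 10 lost the 72 h call, among them the omission of any 1 vehicle array (adjusted p 0.058 to 0.16), of 8 h replicate 1 (0.053) and of 72 h replicate 1 (0.14) or 2 (0.13), by limma's test.

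Geminin (GMNN), the licensing inhibitor, read 1621, 1564 and 1705 with vehicle, 1409, 1376 and 1532 at 8 h, 1319, 1103 and 1496 at 24 h, and 1586, 1435 and 1599 at 72 h. Its 8 h and 24 h arrays lay below all vehicle arrays and its 72 h arrays overlapped them. The log2 difference at 24 h was -0.33 ± 0.11 (SE, n = 3, adjusted p = 0.13, limma), which passed without 24 h replicate 3 (0.047) and with the replicate number as a block (0.044).

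GINS2, part of the active helicase, read 1308, 1249 and 1481 with vehicle, 1518, 1096 and 1344 at 8 h, 1024, 941 and 1088 at 24 h, and 1018, 1297 and 1339.9 at 72 h. Only at 24 h were all 3 arrays below vehicle, with a log2 difference of -0.40 ± 0.13 (SE, n = 3, adjusted p = 0.13, limma). CDC6, the loader, read 335, 253 and 369 with vehicle, 299, 332 and 377 at 8 h, 341, 382 and 403 at 24 h, and 377, 290.2 and 418 at 72 h. Its ranges overlapped at every time, and its log2 differences of 0.082, 0.24 and 0.17 did not pass limma's test (adjusted p of at least 0.598). A second CDC6 probe set of like brightness gave -0.058, -0.17 and 0.17, so no direction can be given for it at 8 h and 24 h.

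DBF4, the activating subunit of the CDC7 kinase, was chosen for mention after its values were seen, since it came closest to the threshold among the rest of this role. It read 649.7, 624 and 659 with vehicle and 525, 345 and 451 at 72 h, with a log2 difference of -0.55 ± 0.18 (SE, n = 3, adjusted p = 0.083, limma). With array weights it passed (log2 -0.61, adjusted p = 0.047, limma). At 72 h CDT1, CDC7, DBF4, TOPBP1 and TIPIN had all 3 arrays below vehicle, as did 12.7% of all tested genes. In this role 9 of 12 genes were lower than vehicle at each of the 3 times, where 51.2%, 53.3% and 52.3% of all tested genes were. An unadjusted p under 0.05 with a lower level was found for 4 of the 12 at 24 h and 5 at 72 h, beside 7.17% and 10.3% of all tested genes.

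None of the 6 genes of the MCM ring passed limma's test at any time, with 0, 0 and 1 at an unadjusted p under 0.05. The shares of all tested genes with such an unadjusted p were 6.38%, 14.4% and 20.1% at 8, 24 and 72 h. MCM2 read 3847, 3635 and 3817 with vehicle, 3102, 3407 and 3766 at 8 h, 3762, 3872 and 3625 at 24 h, and 4703, 3359 and 3674 at 72 h. The groups overlapped at every time, and the log2 differences were -0.14, -0.0053 and 0.040, with 95% intervals at 24 h of -0.24 to 0.23 and at 72 h of -0.20 to 0.28. Across the 6 the differences at 24 h ran from -0.26 (MCM5) to 0.023 (MCM3), and at 72 h from -0.26 (MCM6) to 0.093 (MCM5). The second probe set of MCM5 had the opposite sign at both times, 0.076 and -0.39, so no direction can be given for it. MCM6, whose overlapping matches are printed above, read 3108, 2673 and 2630.2 with vehicle, 2468, 2288 and 2607 at 24 h and 2098, 2416 and 2514 at 72 h. These arrays lay below vehicle at both times, without passing limma's test (adjusted p = 0.42 and 0.15). MCM4 has 4 probe sets, which at 24 h gave -0.19, 0.014, 0.25 and 0.33, so no direction can be given for it.

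None of the 6 origin recognition genes passed limma's test at any time, and none had an unadjusted p under 0.05. Against vehicle, 6.38%, 14.4% and 20.1% of all tested genes had such an unadjusted p at 8, 24 and 72 h. Differences from vehicle ran from -0.27 (ORC1) to 0.10 (ORC3) at 8 h, from -0.21 (ORC6) to 0.22 (ORC3) at 24 h, and from -0.24 (ORC1) to 0.13 (ORC3) at 72 h. At 24 h ORC4, with an interval of -0.24 to 0.24, and ORC2, with -0.28 to 0.26, were the least displaced. At 72 h ORC2 differed by -0.15. A second ORC4 probe set, dimmer (mean signal 104), gave -1.05, 0.23 and -0.98 at 8, 24 and 72 h, so ORC4 is not shown to be unchanged. ORC3 was the least precisely measured of the 6, with an interval of -0.39 to 0.83 at 24 h.

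The 9 polymerase and primase genes also held no call in any comparison with vehicle. At an unadjusted p under 0.05 in limma's test, 2 differed at 24 h and 1 at 72 h, beside 14.4% and 20.1% of all tested genes. POLE2, a subunit of the leading strand polymerase, read 887, 752 and 809 with vehicle, 672, 815 and 1084 at 8 h, 719.6, 719.8 and 864 at 24 h, and 512, 646 and 567 at 72 h. All 3 arrays at 72 h lay below every vehicle, 8 h and 24 h array. The log2 difference from vehicle was -0.50 ± 0.15 (SE, n = 3, adjusted p = 0.071, limma) at 72 h. It passed in 4 of the alternatives, with adjusted p values of 0.044 with the replicate number as a block, 0.043 with only the 2 groups in the fit, and 0.042 and 0.033 without 8 h replicate 1 or 3.

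Some genes of this role stood higher at 24 h. POLD1, the catalytic subunit of polymerase delta, read 372, 503 and 312 with vehicle and 479, 569 and 564 at 24 h, overlapping by 1 vehicle array. The log2 difference was 0.45 ± 0.17 (SE, n = 3, adjusted p = 0.19, limma). PRIM2, the large primase subunit, differed by 0.44 (adjusted p = 0.34, limma), and POLD2, the second delta subunit, lay above vehicle on all arrays at 8 h and 24 h with differences of 0.13 and 0.19. POLD3, another delta subunit, lay below vehicle on all 3 arrays at 24 h, with a difference of -0.24 (adjusted p = 0.49, limma).

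Of the 11 genes of the clamp, its loader, RPA, flap removal and ligation, RFC3 fell at 72 h and no other passed. RFC3, a small subunit of the clamp loader (chr13:33818149-33977377), read 1405, 1265 and 1381 with vehicle, 1284, 1211 and 1377 at 8 h, 1316, 1173 and 1239 at 24 h, and 913, 1144 and 1073 at 72 h. The 72 h arrays were the lowest of all 12. At 72 h it was 1.29-fold lower (log2 -0.37 ± 0.10, SE, n = 3, adjusted p = 0.042, limma), and a second RFC3 probe set gave a difference of -0.60. Of 23 alternative settings 13 lost the call. Among them was the omission of any 1 vehicle array (adjusted p 0.063 to 0.15), any 1 array at 8 h (0.052 to 0.055), 24 h replicate 1 or 3 (0.054 and 0.052) and 72 h replicate 1 or 3 (0.15 and 0.065), by limma's test.

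PCNA, the sliding clamp, read 1591, 1462 and 1583 with vehicle, 1681, 1590 and 1587 at 8 h, 1240, 1054 and 1402 at 24 h, and 1448, 1212 and 1947 at 72 h. The 24 h arrays lay below all vehicle arrays, while at 72 h 1 array was the highest of the 12. The log2 difference was -0.33 ± 0.14 (SE, n = 3, adjusted p = 0.29, limma) at 24 h and -0.035 at 72 h. FEN1, the flap nuclease, read 2219, 2158 and 2246 with vehicle, 2024, 2133 and 2155 at 8 h, 1879, 1740 and 2033 at 24 h, and 2050.0, 1857 and 1845 at 72 h. All 9 treated arrays lay below the vehicle arrays by small amounts, with differences of -0.069, -0.23 (adjusted p = 0.20, limma) and -0.20 (adjusted p = 0.20). RFC2, another loader subunit, differed in the other direction at 72 h, by 0.38 (adjusted p = 0.20, limma). A second RFC2 probe set gave -0.021 at 72 h, so no direction can be given for this gene.

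In nucleotide supply RRM2 rose at 72 h, and the other 4 genes did not pass. RRM2, the regulatory small subunit of ribonucleotide reductase (chr2:10122568-10211010), read 6305, 6179 and 6319 with vehicle, 7636, 6306 and 6984 at 8 h, 7256, 5425 and 7939 at 24 h, and 8090.4, 8045 and 9720.0 at 72 h. The 72 h arrays were the highest of the 12, and the 24 h arrays ranged from below to above the vehicle arrays. At 72 h RRM2 was 1.37-fold higher (log2 0.45 ± 0.12, SE, n = 3, adjusted p = 0.036, limma), and a second probe set gave 0.30. Of 23 alternative settings 10 lost the call, among them the omission of any 1 vehicle array (adjusted p 0.092 to 0.096), of 8 h replicate 3 (0.050) and of 72 h replicate 1 (0.059) or 3 (0.13), by limma's test. RRM1, the large subunit of the same enzyme, lay below vehicle on all arrays at 24 h and 72 h, with differences of -0.14 and -0.16 (adjusted p = 0.48 and 0.27, limma). A second RRM1 probe set gave 0.023 at 24 h and -0.27 at 72 h. The difference between the 2 subunits was not tested.

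TYMS, which makes thymidylate, read 5934, 5640.2 and 6487 with vehicle, 5614, 5499 and 6135 at 8 h, 4950.2, 4646 and 5769 at 24 h, and 5922, 5455 and 5692 at 72 h. The groups overlapped at each time, and the 24 h difference was -0.24 ± 0.091 (SE, n = 3, adjusted p = 0.21, limma). Its second probe set, at a mean signal of 48.5, gave 1.02 at 72 h. TK1, the salvage kinase, read 1982, 1998 and 1396 with vehicle, 1538, 2082 and 1940.1 at 8 h, 1845, 1482 and 1816 at 24 h, and 1649, 1943 and 2053 at 72 h. Its groups overlapped throughout, and the spread of its vehicle arrays was as wide as that of any treated group. DUT, which removes dUTP, read 4828, 5235 and 5401 with vehicle, 5274, 5631 and 5610.2 at 8 h, 4776, 4286 and 5240.0 at 24 h, and 4864, 4408 and 4458 at 72 h. Its arrays overlapped vehicle at each time, with a difference of -0.17 at 72 h (adjusted p = 0.30, limma).

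**Figure D4:**
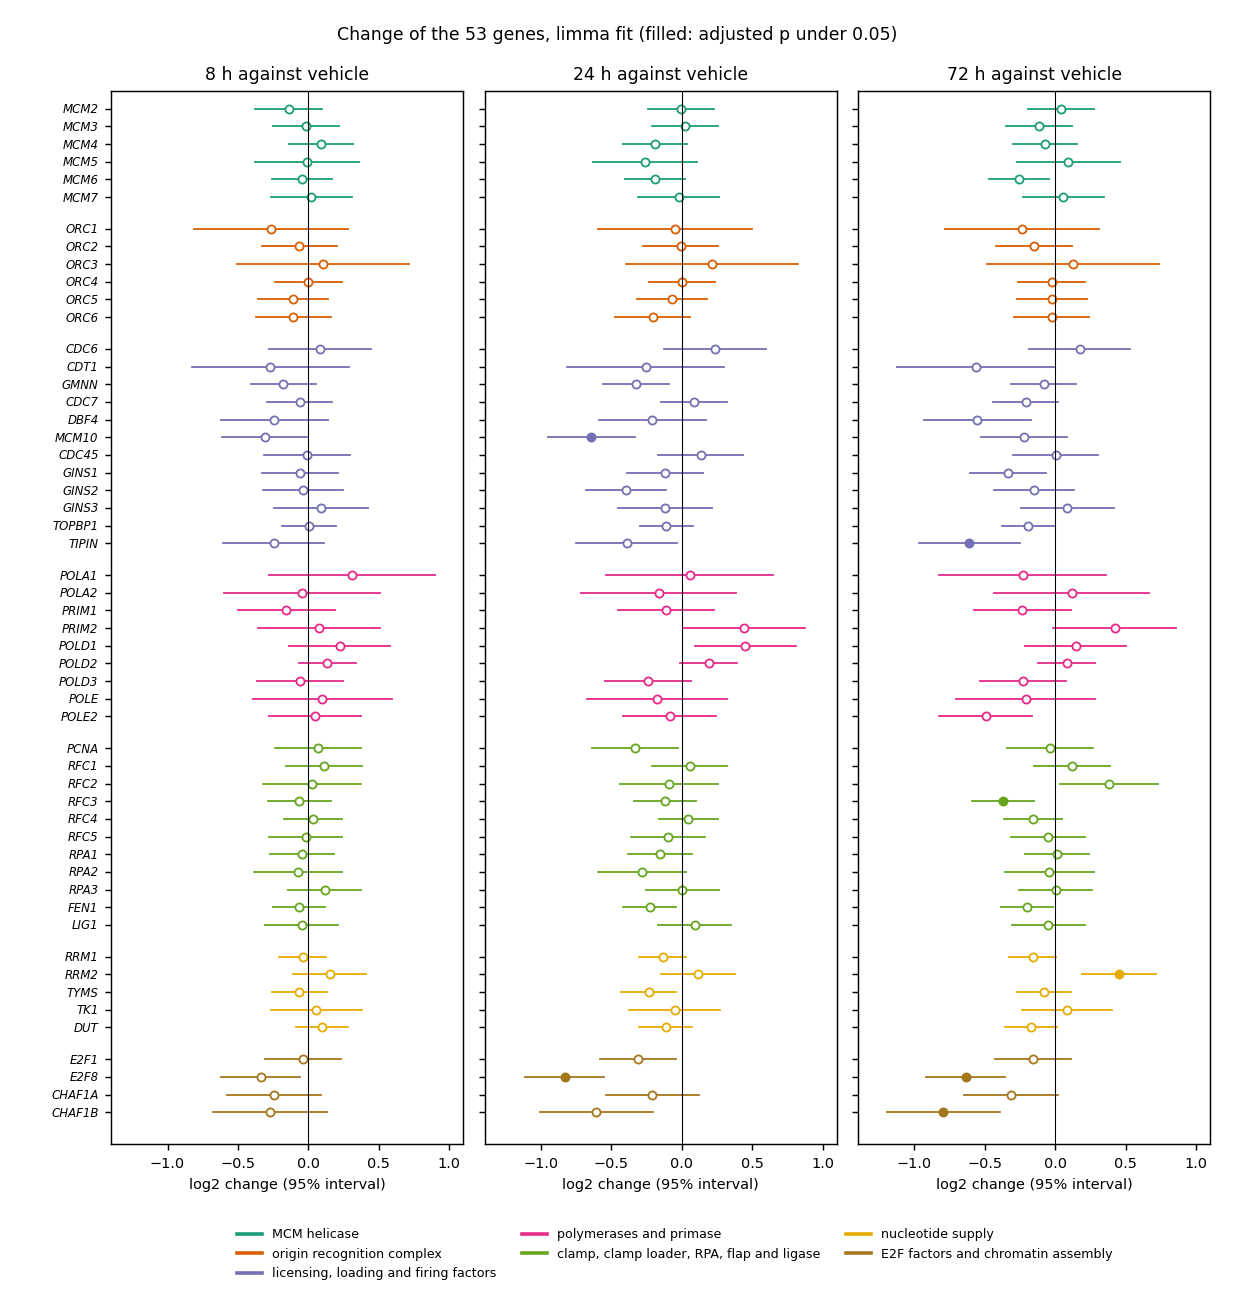
Log2 difference from vehicle with its 95% interval for each of the 53 genes, grouped by role, at 8, 24 and 72 h, with filled symbols where the adjusted p was under 0.05. Intervals exclude 0 by the widest margin for E2F8 at 24 h (-1.11 to -0.55), and most others cross 0.

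No gene of the 53 passed limma's test between treated times with the replicate number left out. With that number as a block, POLE2 in 72 h against 8 h was the only gene to pass. Between 24 h and 8 h 0 passed, with 7 at an unadjusted p under 0.05, where 0.599% of all tested genes passed and 8.26% had such an unadjusted p. Between 72 h and 24 h 0 passed, with 7 at an unadjusted p under 0.05, beside 0.167% and 11.7% of all tested genes. Between 72 h and 8 h 0 passed, with 10 at an unadjusted p under 0.05, beside 2.49% and 14.1%. E2F8 came lower from 8 h to 24 h by a log2 difference of -0.49 (adjusted p = 0.14, limma), and RRM2 higher from 24 h to 72 h by 0.34 (adjusted p = 0.31). POLE2 was lower at 72 h than at 8 h by -0.54 (adjusted p = 0.085, limma), which passed with the replicate number as a block (0.049) and without 8 h replicate 1 (0.031). For the genes past the threshold against vehicle, the times at which they passed are not shown to differ. The precision was enough to bound most genes: at 24 h and 72 h the 95% interval lay within 1 log2 unit of 0 for 51 of 53 genes, and the median reach of the interval to either side was 0.28.

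Split by the promoter matches, the 24 genes with an E2F-type match had median differences of -0.038, -0.12 and -0.15 at 8, 24 and 72 h. The 23 with a window and no match had -0.040, -0.070 and -0.027. Past the threshold were TIPIN and RFC3 at 72 h among those with a match, and MCM10 at 24 h with RRM2 and CHAF1B at 72 h among those without. These medians are descriptions, with no test of their difference.

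On the U95 arrays, with 1 sample at each time and so no test, the sign of the difference from vehicle was the same as on U133A for 28, 25 and 32 of 46 genes at 8, 24 and 72 h. Over all 4161 genes compared, 57.6%, 60.3% and 64.7% had the same sign. The U95 difference was below 0 for 29, 29 and 30 of the 46, where 52.2%, 52.6% and 55.5% of all genes compared were. The medians were -0.067, -0.099 and -0.22 for the 46, beside -0.015, -0.018 and -0.043 over all genes. RFC3, a loader subunit, had U95 signals of 398, 301, 354 and 239 from vehicle to 72 h, lowest at 72 h as on U133A. RRM2 read 493, 598, 407 and 619, highest at 72 h on both array types, and CHAF1B 244, 261, 274 and 196, lower than vehicle on U95 at 72 h alone. PCNA went from 2396 to 2251, 2028 and 1706. POLE2 was opposite in sign at 72 h (0.50 on U95), and E2F1 was opposite at all 3 times, at 0.39, 0.14 and 0.16. E2F8, MCM10 and TIPIN were among the 7 genes not analysed here on U95.

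**Figure D5:**
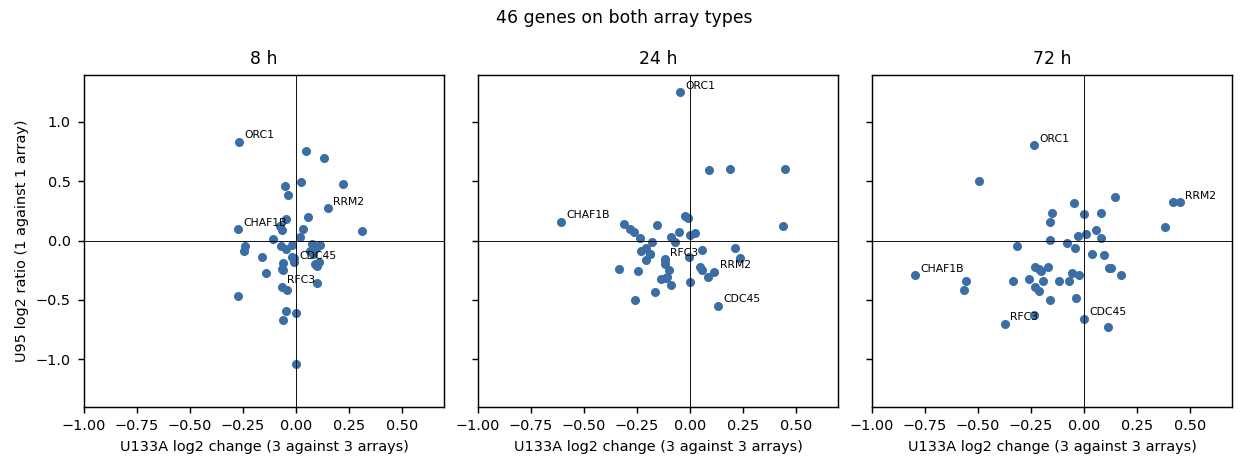
Log2 difference from vehicle on U95 (vertical axis, 1 array per time) against that on U133A (horizontal axis, 3 arrays per group) for the 46 genes on both array types, in panels for 8, 24 and 72 h. Points in the lower left quadrant are lower on both, which held for 19, 20 and 23 of the 46 genes.

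Lists of neighbouring genes gave a background within the pathway. Over all tested genes, 6.38%, 14.4% and 20.1% had an unadjusted p under 0.05 by limma's test at 8, 24 and 72 h. In the same order, 51.2%, 53.3% and 52.3% were lower than vehicle. Of 22 tested genes of other replication machinery (such as TOP2A, DNMT1 and RNASEH2A) none passed limma's test at 8, 24 or 72 h, with 0, 1 and 2 at an unadjusted p under 0.05, and 15, 11 and 20 were lower than vehicle. Of 28 other genes of nucleotide synthesis none passed, with 0, 3 and 7 at an unadjusted p under 0.05, and 17, 15 and 14 were lower. None of 15 replication checkpoint genes passed, with 0, 1 and 2 at an unadjusted p under 0.05, and 9, 10 and 10 were lower. Of 18 genes of the E2F and RB family with S phase cyclins none passed, with 1, 4 and 3 at an unadjusted p under 0.05, and 15, 15 and 13 were lower. CCNA2, the S phase cyclin, was nearest in that list, with differences of -0.34, -0.31 and -0.30 (adjusted p of at least 0.106, limma).

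Mitosis genes, tested as a reference list of 28, were lower in 21, 27 and 25 cases, where 51.2%, 53.3% and 52.3% of all tested genes were. The medians of the list were -0.077, -0.22 and -0.16. In that list 5 fell at 24 h by limma's test, where 1.62% of all tested genes fell (2.98% at 72 h). They were the phosphatase CDC25B, the centromere histone CENPA, the spindle proteins DLGAP5 and KIF11, and the cytokinesis kinesin KIF20A. Without vehicle replicate 1 the 24 h calls of CENPA (adjusted p = 0.079, limma), DLGAP5 (0.12), KIF11 (0.062) and KIF20A (0.17) were lost and CDC25B alone stayed past the threshold (0.0083). Over 23 alternative settings 6, 13, 2 and 9 lost the 24 h calls of CENPA, DLGAP5, KIF11 and KIF20A, and 0 that of CDC25B. At 72 h 2 fell, CDC25B and DLGAP5 (adjusted p = 0.057 and 0.051 without vehicle replicate 2 or 3 for DLGAP5, limma). At 8 h none passed limma's test, with 2 at an unadjusted p under 0.05, beside 6.38% of all tested genes. CDC25B differed by -0.71 at 24 h (adjusted p = 0.0018, limma) and -0.54 at 72 h (0.010). No difference between the lists was tested.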

How the data were processed

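Biotin-labelled cRNA from 16 OVCAR3 samples was measured on 12 U133A and 4 U95 arrays. The deposited values are linear intensity per probe set, made by the authors with MAS5 (version not given in the sources used here), per the submitters' processing notes. The 2% trimmed mean was 500.2 on every U133A array, so the values were used as deposited. Probe sets were named by the platform annotation (19071 of 22283 had 1 gene), with symbols updated through RefSeq on GRCh38.p14. Levels of different probe sets were not compared.

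Signals were taken as log2(value + 15.833), the number being the 10th percentile (13.87 on U95), and the probe set with the highest mean signal stood for each gene. Genes with a mean under the 40th percentile were left out. In R 4.3.3, limma 3.58.1 (lmFit, eBayes with trend; with the packages data.table, at 1.17.8, and statmod 1.5.0) was fitted to all 12 arrays with 8 residual degrees of freedom. P values were adjusted by Benjamini-Hochberg over 7178 genes, with a threshold of 0.05. A fold on this scale understates the change of dim genes. Precision is limited by the number of arrays.

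The 53 genes, roles, lists and tests were chosen with earlier results of these data known. Genes given with every array's value were those past a threshold, the 10 with the lowest F test p, and MCM2, CDC6, PCNA, RRM2, TYMS, TK1 and E2F1. MCM6, DBF4, POLD1 and FEN1 were added after their values were seen. From the lists of neighbouring and mitosis genes, those past the threshold were named, with at most 6 a list by F test p. In the treatment check and the cell type markers, further genes passed the threshold and were not named. Deviations of same-numbered arrays gave correlations above 0.1 in each of the 3 pairs between the 8 h and 24 h groups (lowest 0.11, highest 0.16) and between the 24 h and 72 h groups (lowest 0.10, highest 0.19), so the numbers were taken to pair arrays there, a reading from the data and not from the labels. Between the 8 h and 72 h groups 2 of 3 pairs exceeded 0.1, and pairing there follows if it holds in the other comparisons of treated groups. In the comparisons with vehicle 1, 1 and 2 of 3 pairs did, and pairing there is not excluded. The main fit left the replicate number out everywhere, so it did not use any pairing. Alternatives covered the pseudocount, filter, normalization, probe set rule, array weights, replicate block, arrays in the fit and omission of each array.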

Additional observations from a re-analysis of the deposited data

How the results depend on the processing

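Most results kept their direction and side of the threshold, though omitting an array outside a comparison cannot move its difference. Among the calls of the 53 genes against vehicle, those of E2F8 were kept in every setting. The others were lost in 2 (MCM10), 3 (CHAF1B), 13 (RFC3), 10 (RRM2) and 10 (TIPIN) of the 22 or 23 alternatives. Of the 53 genes, the number past the threshold at 72 h moved from 5 to 3 without a filter and 2 with median centring. With a filter at the 60th percentile it was 3 of the 42 genes still tested. Median centring also lowered the 72 h calls over all tested genes, from 277 higher and 214 lower to 240 and 153. Any 1 array left out gave 0 to 0 at 8 h, 1 to 2 at 24 h, 1 to 5 at 72 h, 0 in 24 h against 8 h, 0 in 72 h against 24 h, 0 to 1 in 72 h against 8 h, and 1 to 3 in the F test. With the replicate number as a block, 1 gene (POLE2) passed in 72 h against 8 h and 2 (E2F8 and RRM2) passed the F test, while the counts between 8 and 24 h and between 24 and 72 h stayed at 0. Against vehicle the block gave 0, 3 and 6 genes at 8, 24 and 72 h, with GMNN added at 24 h and POLE2 at 72 h. In the comparisons with vehicle 6, 6 and 5 of 6 arrays correlated best with their own number. Between 8 and 24 h, 8 and 72 h, and 24 and 72 h these counts were 6, 5 and 6. Whether the numbers also pair arrays with vehicle was thus not settled. The F test gave 3 genes when probe sets of a gene were averaged and 2 with array weights. With the mean of probe sets the median difference was -0.069 at 24 h and -0.15 at 72 h. Omitting arrays moved the median between -0.062 and 0.0087 at 8 h, -0.14 and -0.084 at 24 h, and -0.13 and -0.052 at 72 h. The count of genes lower than vehicle lay at 26 to 36, 33 to 41 and 32 to 39 over the settings in which all 53 were tested. With the filter at the 60th percentile it was 28, 32 and 30 of 42. Signs turned for genes near 0. MCM2 was 0.030 at 24 h with median centring and -0.020 at 72 h with array weights. With the mean of probe sets TYMS was 0.47 at 72 h and E2F1 0.23 at 8 h. The second, dimmer probe set that entered these means gave 1.02 for TYMS and 0.49 for E2F1. Omission of arrays gave ranges of -0.13 to 0.20 (POLE2), -0.14 to 0.088 (GINS2), -0.068 to 0.19 (CDC6), -0.11 to 0.18 (TK1) and -0.13 to 0.028 (E2F1) at 8 h. At 24 h they were -0.031 to 0.019 (MCM2) and -0.22 to 0.049 (TK1), and at 72 h -0.10 to 0.14 (MCM2), -0.22 to 0.12 (PCNA) and -0.086 to 0.17 (TK1). The cause of these shifts was not tested. Choosing probe sets by mean log2 signal, an alternative added after seeing the data, changed the probe set of 0 of the 53 genes. CHAF1B and TIPIN could not be tested with the filter at the 60th percentile.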

Other observations

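Several genes of the set are read by more than 1 probe set, and these did not always move together. The 53 genes have 79 probe sets, 34 genes having 1 and 19 several. All probe sets of a gene shared the sign of their difference from vehicle in 7 of the 19 genes at 8 h, 7 at 24 h and 10 at 72 h. The 3 probe sets of DUT, the dUTPase, were all lower at 24 h (-0.10, -0.12 and -0.27) and at 72 h (-0.12, -0.17 and -0.24). The 2 probe sets of RFC3 were both lower and the 2 of RRM2 both higher at all 3 times.

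ORC1, the largest subunit of the origin recognition complex, differed between array types. Its U95 signals were 155 with vehicle and 287, 388 and 281 at 8, 24 and 72 h, differences of 0.83, 1.25 and 0.80 from 1 array each. On U133A it was 141, 206 and 274 with vehicle and 187, 216 and 178 at 24 h, with a difference of -0.047 and an interval of -0.59 to 0.50.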
